A study of Rattus norvegicus with 4 samples.

Results

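The p53 pathway group described here holds 8 genes that were taken by symbol from the deposited expression tables, namely Mdm2, Mdm4, Cdkn1a, Ccng1, Phlda3, Aen, Sesn1 and Zmat3. They are 8 of the 23360 genes listed, and all 8 are among the 11960 genes with a mean of at least 1 TPM (a share of all transcripts that is corrected for transcript length and sums to 1000000 in each culture) that entered the fit. The genes were chosen by their pathway and selected on the measured difference in TPM between 3D and monolayer culture, which was known when the list was drawn up. Levels and differences of these 8 genes are therefore a description and carry no test. Other genes of the pathway follow below with a test of each gene, in lists also drawn up with earlier results of these data known.

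Messenger RNA was profiled in INS-1 832/3, a single rat insulinoma line that secretes insulin and carries a human insulin transgene under Geneticin selection. The 2D monolayer group was seeded for standard culture, and the 3D bioprinted group was printed in GelXA LAMININK 411, a gelatin methacrylate hydrogel with laminin-411 that is cured with light. Both groups had the same medium, were harvested after 5 days at passage 3, and hold 2 biological replicates each. Printing, hydrogel and curing came together in the 3D group, so their parts cannot be told apart. All 14 beta-cell markers examined were above 1 TPM in every culture. Of 20 markers of other cell types, 8 (Irx2, Hhex, Prss1, Cpa1, Cela1, Cdh5, Pdgfrb and Ptprc) were listed at 0 in every culture, and the summed level was 45.5 and 81.2 TPM in the monolayers and 128 and 158 TPM in 3D culture. Nearly all of this was Gcg, the glucagon gene, and without it the sums were 4.07 and 4.27 TPM in the monolayers and 5.06 and 5.77 TPM in 3D culture. The part of these markers in the results was not tested. Sequencing depth cannot be read from TPM, and values therefore come without a counting error. Levels are given as TPM scaled between samples with factors from 0.960 to 1.02, and differences are of log2(TPM + 1), 3D minus 2D, which understates changes at low TPM.

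p53 is a transcription factor that is held at a low level by Mdm2, the ubiquitin ligase that marks it for destruction, and by Mdm4, an Mdm2 relative that binds p53 and blocks its activity. When p53 is released it switches on Cdkn1a, which encodes the CDK inhibitor p21 and halts the cell cycle, together with Mdm2 itself, which closes a feedback loop. Other well known targets are Ccng1 (cyclin G1, which recruits a phosphatase to Mdm2), Phlda3 (a small lipid-binding protein that keeps Akt from the membrane and restrains growth of islet cells), Aen (a nuclease of the apoptotic response), Sesn1 (a sestrin, which restrains mTORC1) and Zmat3 (a zinc finger protein that binds RNA).

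Sequence close to the p53 response element lies near the annotated start of some of these genes. The p53 response element consensus is a pair of abutting motifs of 10 bases, and it reads the same on both strands. Promoter windows from 250 bases before to 50 bases after the start were available in RefSeq (build GRCr8) for 7 of the 8 genes, all but Zmat3, and the best ungapped match that kept the fixed bases of the consensus was located in each. Cdkn1a (chr20:7150726-7150755, plus strand), Ccng1 (chr10:25685094-25685123, minus strand) and Aen (chr1:142224498-142224527, plus strand) held the closest matches, and these are printed to show the element itself. Capitals mark the 20 bases of the match, with 5 flanking bases on each side.
Cdkn1a: ttcagGAACATGTCTTGACTTGTTCagccc
Ccng1: cagctAGACCTGCCCGGGCAAGCCTtggca
Aen: aagccGGGCATGTCCGGGCAAGCAActact
The Cdkn1a match begins 201 bases before the start, the Ccng1 match 242 bases before it and the Aen match 30 bases before it. Cdkn1a and Ccng1 each depart from the consensus at 1 base, a closeness that 17 of 33469 rat promoter windows (0.0508%, these included) reached and 0 windows exceeded. Aen departs at 2 bases, and 112 windows (0.335%) held a match at least that close. The window of Sesn1 held a match with 3 departures, found in 1.34% of windows, and those of Mdm4, Mdm2 and Phlda3 held none closer than 5, 7 and 11, as near as is found in 11.6%, 38.2% and 65.6% of windows. A match in these letters is a description of the sequence and no measure of binding, and elements outside the windows were not searched.

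The 8 genes did not all differ in the same direction between monolayer and 3D culture. Cdkn1a, Phlda3 and Ccng1 were at about 40 to 54% of their monolayer level in 3D culture, Mdm4 was at 190%, and Mdm2, Aen, Sesn1 and Zmat3 lay between 90.1 and 116%. On the log2 scale 5 of the 8 genes were lower and 3 higher in 3D culture, with a median difference of -0.10 against -0.0031 over all genes tested. The 3D and monolayer cultures did not overlap for 6 of the 8 genes, 5 of them lower and 1 higher. Over all genes tested such separation was found in 75.5%, 38.2% lower and 37.3% higher, and nothing is read from the count since the genes were chosen with this contrast known.

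**Figure D1:**
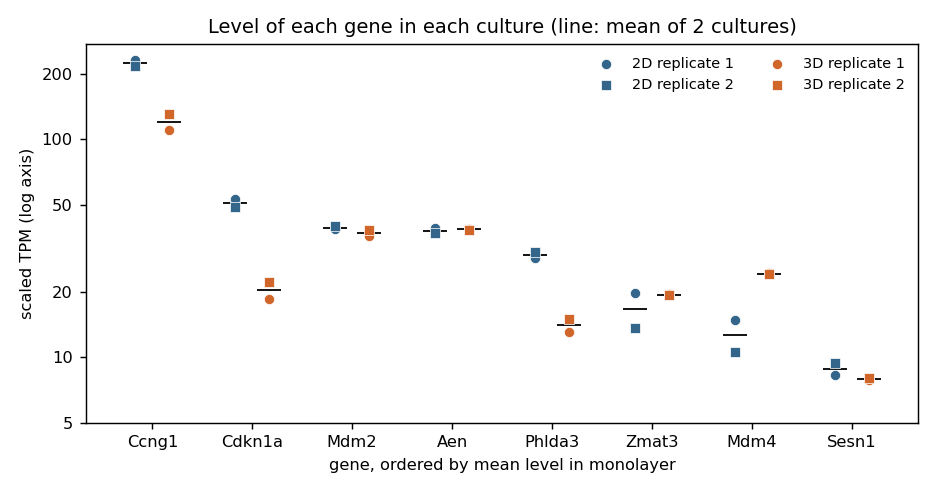
Scaled TPM (log axis) of each of the 8 genes in the 2 monolayer cultures (blue) and the 2 bioprinted 3D cultures (orange), with a line at the mean of each group. Cdkn1a, Ccng1 and Phlda3 sit lower in 3D culture, Mdm4 sits higher, and Mdm2 and Aen stay near 38 TPM in both.

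Among the regulators of p53, Mdm2 was expressed at 38.5 and 40.0 TPM in the monolayers and at 36.1 and 38.4 TPM in 3D culture. The groups lay within a few TPM of each other, with the 3D cultures just below, and in the TPM as deposited they overlapped. The log2 difference of Mdm2 was -0.074 with a standard error of 0.062, and it ran from -0.12 to -0.030 with a culture left out. Mdm4 had 14.7 and 10.6 TPM in the monolayers and 24.2 and 24.0 TPM in 3D culture. Both 3D cultures were nearly equal and stood well above the monolayer cultures, which differed from each other. The log2 difference of Mdm4 was 0.89 (standard error 0.15), ranked 320 from the highest of 11960 genes, and it was 0.67 without monolayer replicate 2, the culture with the lowest level.

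The ratio of Mdm4 to Mdm2 within a culture does not depend on the scaling between samples. It was 0.382 and 0.265 in monolayer and 0.671 and 0.624 in 3D culture, so the transcripts of Mdm4 came closer in level to those of Mdm2 in both 3D cultures. Mdm2 remained the more abundant of the pair in all 4 cultures.

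Cdkn1a, the effector of cell cycle arrest, showed the lowest difference of the group. It had 53.3 and 49.0 TPM in the monolayers and 18.6 and 22.2 TPM in 3D culture, which leaves 39.8% of the monolayer mean. The groups were far apart compared with the spread within them, 51.2 ± 3.04 TPM against 20.4 ± 2.54 TPM (SD, n = 2). The log2 difference was -1.29 (standard error 0.098), ranked 32 from the lowest of 11960 genes, and it ran from -1.41 to -1.17 over the 11 other settings. The ratio of Cdkn1a to Mdm2, both under p53, was 1.38 and 1.23 in monolayer and 0.515 and 0.577 in 3D culture. The ratio thus crossed 1, with Cdkn1a the more abundant transcript in both monolayer cultures and Mdm2 in both 3D cultures.

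**Figure D2:**
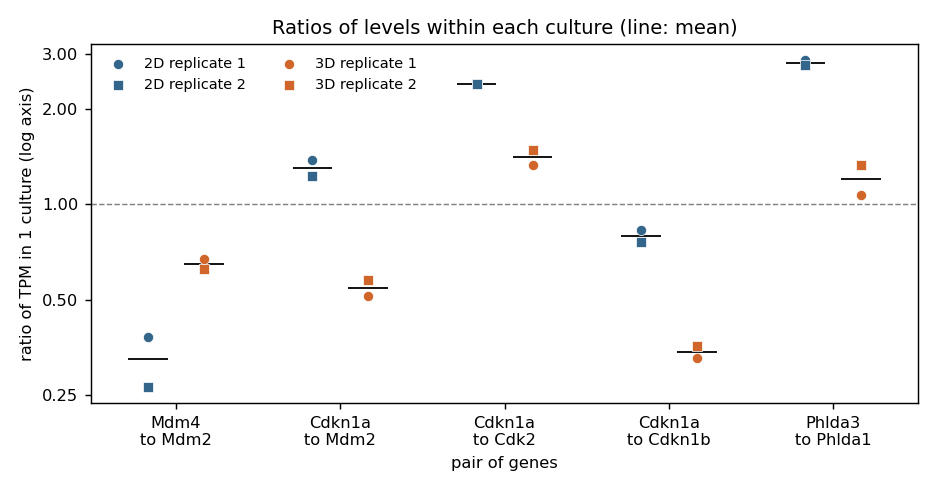
Ratio of the TPM of a pair of genes in the same culture (log axis, dashed line at 1) for the monolayer (blue) and 3D (orange) cultures, with a line at the group mean. Cdkn1a to Mdm2 goes from above 1 in both monolayer cultures to below 1 in both 3D cultures, while Mdm4 to Mdm2 is higher in both 3D cultures.

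Cdkn1a is listed with 2 transcripts and both were lower in 3D culture. Transcripts are named by the identifiers in the tables, and their annotation release is not given in the sources used here. ENSRNOT00000091731.1 had 31.1 and 27.2 TPM in the monolayers and 11.7 and 12.2 TPM in 3D culture. ENSRNOT00000000628.4 had 22.3 and 21.8 TPM in the monolayers and 6.93 and 10.0 TPM in 3D culture. Their means in 3D culture were 40.8% and 38.4% of those in monolayer. The share of the first transcript in the gene was between 54.8 and 62.7% in the 4 cultures, and the shares of both groups overlapped.

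Ccng1 was the most abundant gene of the group in every culture. It had 231 and 216 TPM in the monolayers and 110 and 131 TPM in 3D culture. The higher 3D culture was still far below the lower monolayer culture, and the 3D mean was 53.9% of the monolayer mean. The log2 difference was -0.89 with a standard error of 0.096. Nearly all of the loss lay in the main transcript, ENSRNOT00000065633.3, which had 199 and 201 TPM in the monolayers and 94.2 and 112 TPM in 3D culture. The minor transcript, ENSRNOT00000079646.1, had 31.6 and 14.7 TPM in the monolayers and 15.5 and 19.4 TPM in 3D culture, and its groups overlapped.

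Phlda3, the repressor of Akt, had 28.6 and 30.4 TPM in the monolayers and 13.0 and 15.0 TPM in 3D culture. Replicates of a group differed by a few TPM at most, and the 3D mean was 47.5% of the monolayer mean. The log2 difference was -1.03 (standard error 0.086), ranked 52 from the lowest of 11960 genes. A single transcript is listed for Phlda3, as for Mdm4, Aen and Zmat3.

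**Figure D3:**
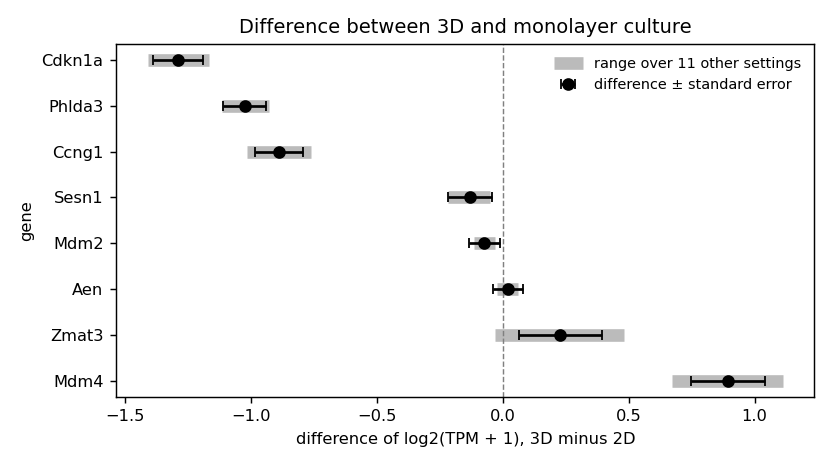
Difference of log2(TPM + 1), 3D minus 2D, for the 8 genes, with its standard error (black) and the range over 11 other settings of scaling, filter, pseudocount, model and left-out culture (grey). Cdkn1a, Phlda3 and Ccng1 stay below -0.76 and Mdm4 above 0.67 in every setting, while the ranges of Aen and Zmat3 cross 0.

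The remaining targets differed little between the groups. Aen had 39.1 and 36.9 TPM in the monolayers and 38.9 and 38.1 TPM in 3D culture, with both 3D values between the monolayer values. The log2 difference of Aen was 0.018 (standard error 0.060). Sesn1, the lowest of the group, had 8.25 and 9.37 TPM in the monolayers and 7.85 and 8.03 TPM in 3D culture. The 3D cultures of Sesn1 lay just below the monolayer cultures, with a log2 difference of -0.13 (standard error 0.087), and it was -0.22 without monolayer replicate 1 and -0.052 without monolayer replicate 2. Its transcript ENSRNOT00000065890.1 had 3.41 and 3.72 TPM in the monolayers and 2.75 and 3.02 TPM in 3D culture, whereas the groups overlapped for ENSRNOT00000089611.1. Zmat3 had 19.8 and 13.6 TPM in the monolayers and 19.4 and 19.3 TPM in 3D culture. Here the difference rested on monolayer replicate 2, since the log2 difference was 0.23 (standard error 0.16) with it and -0.030 without it.

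**Figure D4:**
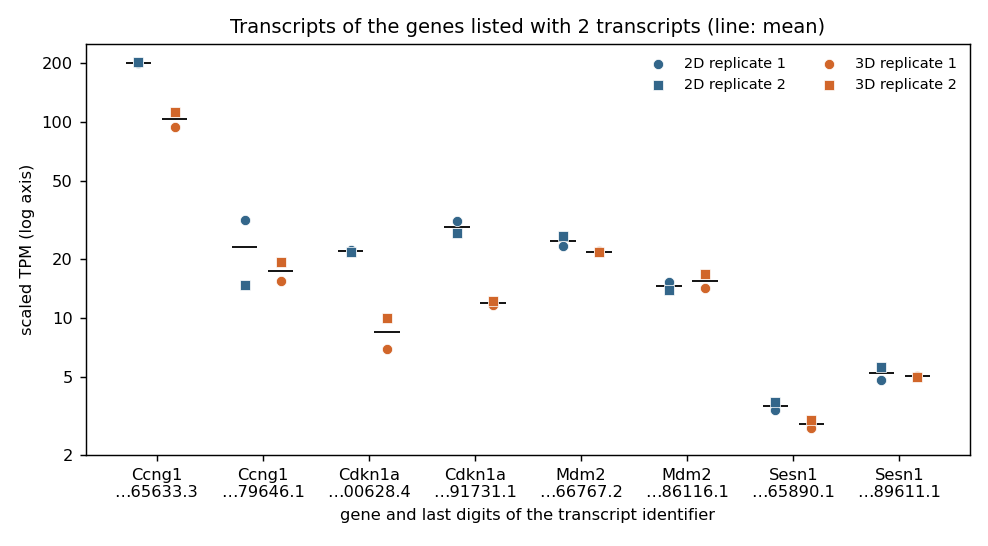
Scaled TPM (log axis) of each transcript of the 4 genes listed with 2 transcripts, in the monolayer (blue) and 3D (orange) cultures, with a line at the group mean. Both transcripts of Cdkn1a and the main transcript of Ccng1 are lower in both 3D cultures, and the minor Ccng1 transcript and the second Mdm2 transcript overlap between groups.

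The order of the 8 levels was different in the 2 culture conditions. TPM are corrected for length, so levels can be compared between genes. In monolayer the means fell in the order Ccng1, Cdkn1a, Mdm2, Aen, Phlda3, Zmat3, Mdm4 and Sesn1, and the neighbours Mdm2 and Aen overlapped, as did Zmat3 and Mdm4. In 3D culture the order was Ccng1, Aen, Mdm2, Mdm4, Cdkn1a, Zmat3, Phlda3 and Sesn1, with overlap of Aen and Mdm2 and of Cdkn1a and Zmat3. Cdkn1a was in place 2 in both monolayer cultures and in places 6 and 5 in the 3D cultures. Mdm4 was in place 7 in both monolayer cultures and in place 4 in both 3D cultures.

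Likeness between genes was measured as the Euclidean distance between log2 values, each centred on the gene's own mean, over the 4 cultures. Within the group the closest pairs were Mdm2 and Sesn1 at 0.107, Mdm2 and Aen at 0.156, Ccng1 and Phlda3 at 0.193 and Aen and Sesn1 at 0.233. Cdkn1a was nearest to Phlda3, at 0.305, and farthest from Mdm4, at 2.21. Among 7612 other genes with a mean of at least 10 TPM, the nearest to Cdkn1a were LOC100363469 (0.140), Pir (0.154), Creld2 (0.197) and Pclaf (0.222). Those nearest to Mdm2 were Tlnrd1 (0.0123), Il17ra (0.0140), Ap3d1 (0.0148), Anapc2 (0.0202) and Spryd4 (0.0208). With 4 cultures in 2 groups, a short distance mostly reflects a like difference between the groups.

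The rest of the pathway was tested with limma on the same values, with p-values adjusted over all 11960 genes. The lists were chosen with earlier results of these data known, so their shares and p-values are no independent support. At an adjusted p below 0.05, 18.5% of all genes tested rose and 19.5% fell in 3D culture, 38.0% together. With 2 cultures a group the exact two-sided permutation p of any gene alone is at least 0.33, so each call rests on the spread shared across genes. With all 4 cultures 4541 genes were called, and far fewer with either 3D culture left out. In such a fit the 3D group is a single sample, and the spread is measured in the 2 monolayer cultures alone. Of the tested genes followed over these settings, 0 changed direction. In bulk RNA, fewer cells that express a gene and less of its RNA per cell cannot be told apart.

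Of the list of p53 relatives and regulators, 25 of 30 genes were tested, of which 9 rose and 2 fell. These are 36% and 8%, beside 18.5% and 19.5% of all genes, and the median log2 difference of the list was 0.11. The p53 relative Tp63 was listed at 0 in every culture, and the relative Tp73 was below the filter of 1 TPM. Hipk2, a kinase that phosphorylates p53, rose from 4.68 and 3.49 TPM to 9.46 and 9.19 TPM, a log2 difference of 1.03 (adjusted p = 0.00577 in limma). Ep300, an acetyltransferase and coactivator of p53, rose by 0.88 on this scale (adjusted p = 0.00977), and Trim24, a ubiquitin ligase of p53, by 0.70 (adjusted p = 0.00548). Tp53bp1, Huwe1, Atr, Daxx, Crebbp and Usp7 were the other genes that rose. Chek2, the checkpoint kinase upstream of p53, fell from 19.2 and 19.9 TPM to 10.8 and 13.4 TPM, a log2 difference of -0.65 (adjusted p = 0.010 in limma). Rpl11, a ribosomal protein that can bind Mdm2, fell by 0.28 on the log2 scale (adjusted p = 0.0276 in limma). The call of Rpl11 was lost in 4 of 12 other settings. Its log2 difference was -0.22 without monolayer replicate 2, -0.31 without 3D replicate 1 and -0.25 without 3D replicate 2. Reads of Rpl11 may be shared with its many gene copies. Cdkn2a, whose alternative product restrains Mdm2, was listed at 0 in every culture. Without 3D replicate 1 limma called none of the 25, with 6 higher and 2 lower at an unadjusted p below 0.05. Without 3D replicate 2 it called 2 higher and 1 lower, and without monolayer replicate 2 it called 5 higher and 2 lower.

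Of 47 other known p53 targets, 37 were tested, of which 5 rose and 7 fell, 13.5% and 18.9%. The share that fell was near the 19.5% of all genes, and the share that rose was below their 18.5%. The median log2 difference of the list was -0.11. By mean log2, 26 of the 37 were lower in 3D culture, beside 50.5% of all genes tested. The groups did not overlap for 18 lower and 9 higher genes of the 37, beside 38.2% and 37.3% of all genes tested. Rps27l had the lowest difference, with 292 and 220 TPM in the monolayers and 156 and 112 TPM in 3D culture (log2 difference -0.93, adjusted p = 0.0179 in limma). The call of Rps27l was lost without monolayer replicate 1 (log2 difference -0.73, adjusted p = 0.0601 in limma) and without either 3D culture (adjusted p = 0.0598 and 0.0822). Its product is close to that of Rps27, and reads of near-identical stretches may be divided between them. Perp, a membrane protein of desmosomes and of p53-dependent death, fell from 26.0 and 31.3 TPM to 17.2 and 17.9 TPM, and Abhd4, a lipid hydrolase, from 21.5 and 20.1 TPM to 11.9 and 13.7 TPM. Their log2 differences were -0.67 and -0.66 (adjusted p = 0.00767 and 0.00650 in limma). Fdxr, the reductase of mitochondrial electron transfer to cytochromes P450, fell by 0.56 (adjusted p = 0.0158 in limma), and Bax, Triap1 and Ei24 also fell. Fdxr had 5.43 and 4.78 TPM in the monolayers and 3.39 and 2.92 TPM in 3D culture, and its call was lost in 3 of 11 other settings. In the other direction Btg1, an antiproliferative gene, rose from 74.0 and 85.2 TPM to 178 and 181 TPM, a log2 difference of 1.17 (adjusted p = 0.00348 in limma). Btg1 kept its call in all 12 other settings. Plk3, a stress-activated kinase, rose by 0.77 and Ercc5, a nuclease of excision repair, by 0.45, and Tp53i11 and Ptp4a1 rose too. The adjusted p of Ercc5 was 0.0108 in limma, and its call was lost in 3 of 12 other settings. Gadd45a, a classical arrest gene, had 35.3 and 42.1 TPM in the monolayers and 45.0 and 46.0 TPM in 3D culture, a log2 difference of 0.23 that did not pass the test (adjusted p = 0.0958 in limma). Without 3D replicate 1, Btg1 was the only gene of the list called, with 5 higher and 7 lower at an unadjusted p below 0.05, and without 3D replicate 2 the counts were 2 higher and 1 lower.

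**Figure D5:**
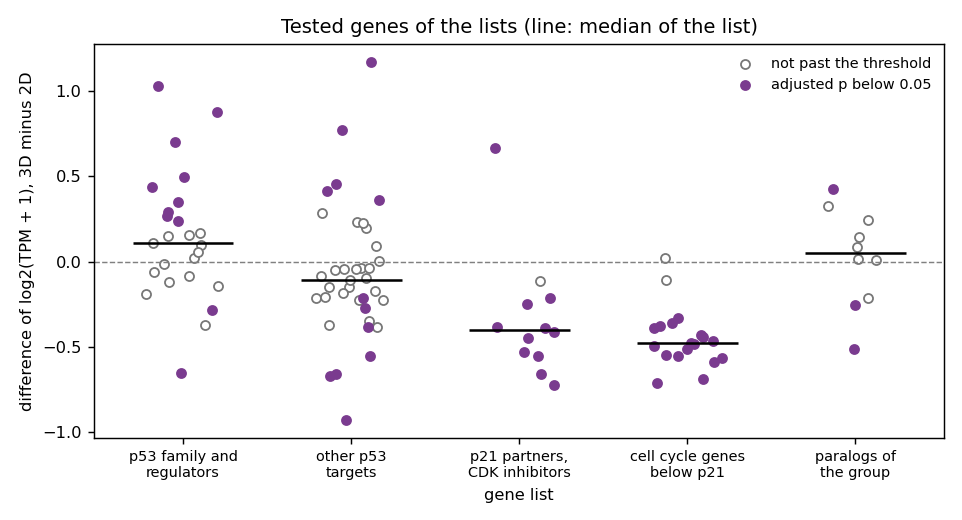
Difference of log2(TPM + 1), 3D minus 2D, for the tested genes of 5 lists around the group, filled where the adjusted p in limma was below 0.05, with a line at the median of each list. The regulators and the other p53 targets spread to both sides of 0, and of the 19 cell cycle genes below p21 that were tested 17 are filled, all of them below 0.

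p21 acts by binding cyclins, CDKs and PCNA, and most of these partners were also lower in 3D culture. Of 12 tested partners and other CDK inhibitors, 10 fell and 1 rose, 83.3% and 8.33%, beside 19.5% and 18.5% of all genes. The median log2 difference of the list was -0.40. Ccnd3 fell from 32.9 and 30.5 TPM to 18.7 and 19.0 TPM, a log2 difference of -0.72 (adjusted p = 0.00409 in limma). Cdkn2c, an inhibitor of CDK4 and CDK6, fell by 0.66 and Cdk1, the mitotic kinase, by 0.55 on the log2 scale. Ccnd2, the main D-type cyclin of these cells by level, rose from 76.8 and 63.1 TPM to 113 and 109 TPM (log2 difference 0.67, adjusted p = 0.00811 in limma). Cdkn1b, which encodes p27, had 64.4 and 64.7 TPM in the monolayers and 57.0 and 62.1 TPM in 3D culture and did not pass the test (adjusted p = 0.194 in limma). Cdkn1a stood at 0.828 and 0.758 of the level of Cdkn1b in monolayer and at 0.326 and 0.357 in 3D culture. Its ratio to Cdk2, a kinase that p21 inhibits, was 2.41 and 2.40 in monolayer and 1.33 and 1.48 in 3D culture. The transcripts of Cdkn1a were thus lower in 3D culture also in relation to those of Cdk2, which fell. Cdkn1c, Cdkn2a and Cdkn2b were listed at 0 in every culture. Without 3D replicate 1 limma called none of the 12, with 9 lower and 1 higher at an unadjusted p below 0.05, and without 3D replicate 2 it called 5, all lower.

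A further list held general cell cycle genes that are known, as background, to be lowered when p53 acts through p21 and the DREAM complex. Whether p53 or p21 had a part in their levels was not tested. Of 19 tested, 17 fell (89.5%, beside 19.5% of all genes) and limma called none higher, at an unadjusted p below 0.05 also 0. This list too was chosen with earlier results known, and its genes are not independent of each other, so the share is a description. The median log2 difference was -0.48. Cdc20, the activator of the anaphase-promoting complex, fell from 85.6 and 92.3 TPM to 52.0 and 55.6 TPM, a log2 difference of -0.71 (adjusted p = 0.00409 in limma). Birc5 (survivin) fell by 0.69 and Plk1, a mitotic kinase, by 0.59. Cdc25a and Cdc25c, with log2 differences of 0.021 and -0.11, did not pass the test. Cdk1 and Ccnb1 stand in this list and in that of the p21 partners. Transcripts of the arrest gene Cdkn1a and of these cell cycle genes were thus low in the same 3D cultures. Without 3D replicate 1 limma called none of the 19, with 17 lower at an unadjusted p below 0.05, and without 3D replicate 2 it called 7, all lower.

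Of 10 tested genes listed as paralogs of the 8 genes, 1 rose (10%) and 2 fell (20%), beside 18.5% and 19.5% of all genes. The median log2 difference of the list was 0.051. The Zmat genes of this list share a family name with Zmat3, and their relation to it by sequence was not examined. Zmat5 fell from 19.4 and 19.8 TPM to 13.3 and 13.6 TPM (log2 difference -0.51, adjusted p = 0.00558 in limma), Zmat2 fell by 0.25 and Zmat1 rose by 0.42. The calls of Zmat1 and Zmat2 were each lost in 6 of 12 other settings. With no expression filter their adjusted p was 0.0783 and 0.0551 in limma. The log2 difference of Zmat1 was 0.42 without monolayer replicate 1 and 0.43 without monolayer replicate 2. That of Zmat2 was -0.33 and -0.18. Ccng2, the relative of Ccng1, had a log2 difference of 0.087 and Phlda1, the relative of Phlda3, one of 0.14, and neither passed the test (adjusted p = 0.376 and 0.206 in limma). The ratio of Phlda3 to Phlda1 was 2.86 and 2.76 in monolayer and 1.07 and 1.33 in 3D culture, and that of Ccng1 to Ccng2 was 30.0 and 27.4 in monolayer and 13.4 and 15.6 in 3D culture. Sesn2 and Sesn3 had log2 differences of -0.21 and 0.24 and did not pass the test (adjusted p = 0.0690 and 0.184 in limma). Without 3D replicate 1 limma called no paralog, with 2 lower and 0 higher at an unadjusted p below 0.05. Without 3D replicate 2 or without monolayer replicate 2 it called 1 lower and no other.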

How the data were processed

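RNA of 2 monolayer and 2 bioprinted INS-1 cultures was sequenced as single-end reads of stranded poly(A) libraries. The authors ran Salmon 1.2 on rat transcripts plus human insulin and deposited its TPM per transcript, written with decimal commas, which sum to 1000000 in each of the 4 samples. The study's own test on length-scaled counts was not repeated, since TPM are not counts. The build is named as rn4, but the transcript identifiers look like those of a later annotation, so no coordinates were taken from them. Values above 0 were never identical between samples.

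TPM were summed per symbol, genes with a mean of at least 1 TPM kept, and samples scaled by TMM without weights (trimming at each end 30% for M and 5% for A). The log2(TPM + 1) values were tested with limma 3.58.1 in R 4.3.3 (empirical Bayes with trend, Benjamini-Hochberg adjustment). The steps were run on simulated data with independent noise of the same size for every gene. Real spread differs between genes, so this run does not show how reliable the calls are. TPM keep no depth, so precision is that of 2 cultures a group.

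The 8 genes and all lists were chosen with earlier results of these data known. Named are the 8 genes, the 3 largest rises and 3 largest falls called in each other list, genes of the regulator and target lists with a called log2 difference of at least 0.5 in size, and, of the 5 genes nearest to Cdkn1a and to Mdm2, 4 and 5. Some genes that the rule names are not reported here. Other genes are named from the lists after their values were seen, as was the choice of ratios and of the promoter search. List symbols without a row in the files (Chek1, Sirt1, Tnfrsf10b, Bbc3, Cdkn2d, Ccnb2 and E2f1 of the tested lists) were not analysed here. The replicate numbers were tried as a block, beside other scalings, filters, a pseudocount of 0.1, a threshold of 0.01 and each culture left out.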

Additional observations from a re-analysis of the deposited data

How the results depend on the processing

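Over 12 other settings, 216 of 263 values of the tested genes picked by the naming rule (those with the largest called differences of each list) kept their direction and their side of the threshold and 47 kept the direction alone. Other genes named were not followed one by one. The 8 genes of the group kept their sign in the 11 settings that give them a value, except Aen, at -0.018 with no expression filter and -0.024 without monolayer replicate 2, and Zmat3, at -0.030 without monolayer replicate 2. Without monolayer replicate 1 these were 0.056 for Aen and 0.48 for Zmat3. The median log2 difference of the group was -0.062 on TPM without scaling and -0.14 with no expression filter, and it ran from -0.16 to -0.051 with a culture left out. With no expression filter, 4 regulators, 2 p21 partners and 0 paralogs rose and 1 paralog fell, and without the trend in the empirical Bayes step 1 paralog fell. At an adjusted p below 0.01, limma called 1418 genes (724 higher and 694 lower), with 4 regulators higher and 0 lower, 2 other targets higher and 2 lower, and 0 paralogs higher and 1 lower. With a culture left out the calls over all genes ran from 136 to 4515. Those higher ran from 105 to 2282 and those lower from 31 to 2233. For the regulators they were 0 to 7 higher and 0 to 2 lower, for the other targets 1 to 6 higher and 0 to 8 lower, for the p21 partners 0 to 1 higher and 0 to 9 lower, for the cell cycle genes 0 to 17 lower, and for the paralogs 0 to 1 higher and 0 to 3 lower. Leaving out a culture leaves a single sample in its group, assumed to vary like the others. The cause of these shifts was not tested. Same-numbered replicates did not deviate together (correlation -0.006 across 11960 genes), and the replicate block called 4814 genes, with 7 regulators higher and 2 lower and 17 cell cycle genes lower. The labels give no culture pairing beyond the number.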
